A study of Drosophila melanogaster with 3 samples.

Results

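The 8 genes described here encode the RNAs and proteins of dosage compensation in Drosophila melanogaster: the noncoding RNAs roX1 and roX2 (annotated as lncRNA:roX1 and lncRNA:roX2), the MSL complex proteins msl-1, msl-2, msl-3, mof and mle, and the DNA-binding protein Clamp. The rule lists them by name and uses no measured value, although the genes were chosen with earlier results of these data known. They are 8 of the 17683 genes annotated on the 6 chromosome arms of the dm6 assembly. A region was assigned to a gene when its summit, the base of highest enrichment, lay inside the gene or within 2000 bp of either end. The data are chromatin immunoprecipitation followed by sequencing (ChIP-seq) for Hsf, the heat shock transcription factor, in whole embryos of 0 to 24 h that pooled males and females. Embryos came from 1 transgenic line, Hsf-GFP, in which GFP is joined to the C terminus of Hsf, and the precipitation used an antibody against GFP. Chromatin was sonicated to between 200 and 800 bp, and the labels name a control experiment but no heat treatment. The 3 samples are labelled biological replicates and form 1 group, so there was no contrast between conditions. Because whole embryos were used, strong binding in few cells and weak binding in many cannot be told apart, nor can binding in males and in females.

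In male flies, the MSL complex coats the single X chromosome and raises its transcription to the output of both X chromosomes of females. Msl-1 and Msl-2 form the core that recognises the X, Msl-3 carries a chromodomain, Mof acetylates lysine 16 of histone H4, and Mle is an RNA helicase that loads roX RNA into the complex. The roX genes lie on the X and contain high-affinity entry sites, and Clamp is a zinc finger protein that binds GA-rich MSL recognition elements in both sexes. Hsf binds as a trimer to inverted repeats of GAA, the heat shock element, and activates chaperone genes after heat.

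The reference sequence around the summits of 6 of the regions is shown. They include the peaks of roX1, roX2 and msl-1 in the authors' optimal list (optimal peaks). The others lie at the start sites of roX2 and msl-3. Each stretch spans 100 bp to either side of the summit, cut short where it would run into a coding transcript's untranslated region, and is the dm6 plus strand of the RefSeq genome, 5′ to 3′. Capitals mark matches, on either strand, to the motifs searched. The stretch at the roX1 peak is chrX:3862401-3862601 and that at the roX2 promoter region is chrX:11578990-11579190. The stretch at the stronger roX2 peak is chrX:11580373-11580573 and that at the outer roX2 peak is chrX:11580572-11580771. The stretch at the msl-1 peak is chr2L:18688804-18689004, and that at the msl-3 promoter region is chr3L:7125534-7125728. The summit is base 101 of each, except for msl-3, where it is base 95.
roX1 peak: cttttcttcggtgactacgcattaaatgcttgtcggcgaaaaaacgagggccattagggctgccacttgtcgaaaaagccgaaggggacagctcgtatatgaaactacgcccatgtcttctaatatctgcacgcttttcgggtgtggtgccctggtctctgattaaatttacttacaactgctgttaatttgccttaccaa
roX2 promoter region: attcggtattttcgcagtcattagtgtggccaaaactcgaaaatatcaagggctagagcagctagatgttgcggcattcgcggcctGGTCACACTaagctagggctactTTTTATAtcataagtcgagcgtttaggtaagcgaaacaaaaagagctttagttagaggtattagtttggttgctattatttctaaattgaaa
roX2 stronger peak: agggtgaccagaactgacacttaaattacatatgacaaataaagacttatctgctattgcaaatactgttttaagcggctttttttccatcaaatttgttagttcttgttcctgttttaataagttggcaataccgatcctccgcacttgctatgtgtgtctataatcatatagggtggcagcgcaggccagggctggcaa
roX2 outer peak: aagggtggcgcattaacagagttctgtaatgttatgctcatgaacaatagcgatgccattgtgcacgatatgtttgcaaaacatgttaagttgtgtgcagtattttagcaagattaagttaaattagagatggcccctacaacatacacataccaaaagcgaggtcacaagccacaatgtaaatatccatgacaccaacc
msl-1 peak: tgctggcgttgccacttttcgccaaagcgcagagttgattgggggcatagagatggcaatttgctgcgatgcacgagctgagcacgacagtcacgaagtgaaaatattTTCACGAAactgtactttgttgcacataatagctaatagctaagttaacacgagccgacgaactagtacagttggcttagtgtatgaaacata
msl-3 promoter region: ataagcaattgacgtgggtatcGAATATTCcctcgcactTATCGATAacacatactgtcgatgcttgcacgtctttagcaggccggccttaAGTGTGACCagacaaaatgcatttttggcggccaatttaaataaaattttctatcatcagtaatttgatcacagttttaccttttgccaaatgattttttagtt

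Within the stretches shown, no motif match fell at the roX1 peak or at either roX2 peak. The deposited peaks run beyond these stretches. The nearest GAANNTTC lay 200 bp from the roX1 summit and 177 bp from the msl-1 summit. The nearest GAGAGAGA lay 202 bp from the stronger roX2 summit. In the msl-1 stretch the only match was TTCACGAA, an inverted pair of heat shock units starting at base 109, 8 bases from the summit. The msl-3 promoter held GAATATTC, the other arrangement of such a pair, at base 23, the DREF site TATCGATA at base 40 and an M1BP site read on the opposite strand at base 92. At the start of roX2, the M1BP site GGTCACACT began at base 87. A match to the TATA box letters, TATAAAA on the strand opposite to roX2, began at base 110. Both lay downstream of the roX2 start site, inside the RNA. DREF and M1BP are factors that bind promoters of housekeeping genes.

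The authors deposited a list of candidate regions for each replicate and for the 3 replicates pooled, in which peaks are mixed with background regions. They also deposited an optimal list, labelled as peaks thresholded by IDR (irreproducible discovery rate), a method that compares peak ranks between replicates. Each region carries the authors' signal, the strength score of the narrowPeak format. Its scale differs from list to list, so it was used only to rank regions within a list. The pooled list held 30000 regions with signals between 24.6 and 3522.5 (median 41.4), and the replicate lists held 30000, 28225 and 30000. Of the pooled regions, 5756 were optimal, 19.2%, with a lowest signal of 97.0 and a median of 167. The highest signal of a pooled region that was not optimal was also 97.0, so the optimal list is the top of the pooled ranking. Being in it therefore does not show that the replicates ranked a given peak similarly. Read depth is unknown, since the lists carry no counts.

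All 8 dosage compensation genes had a candidate region and 4 had an optimal peak: roX1, roX2, msl-1 and mle. Over all annotated genes, 76.8% had a candidate within 2000 bp and 39.2% had an optimal peak there. Among the 7188 genes as long as the 8, between 1.37 and 5.92 kb, 43.4% had one. The 4 of 8 dosage compensation genes were therefore near that background. Together the 8 genes held 25 pooled regions, with a median of 3 per gene against 2 over all genes, or 0.4 per kb of window against 0.286. Their strongest regions had a median signal of 103, against 99.3 over the 13572 genes with a candidate, whose quartiles were 47.9 and 208, and against 104 in genes of the same length range. By strength the genes thus spread across the ordinary range for fly genes: 78.3% of genes had a weaker strongest region than mle, and 16.8% had a weaker one than msl-2.

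**Figure D1:**
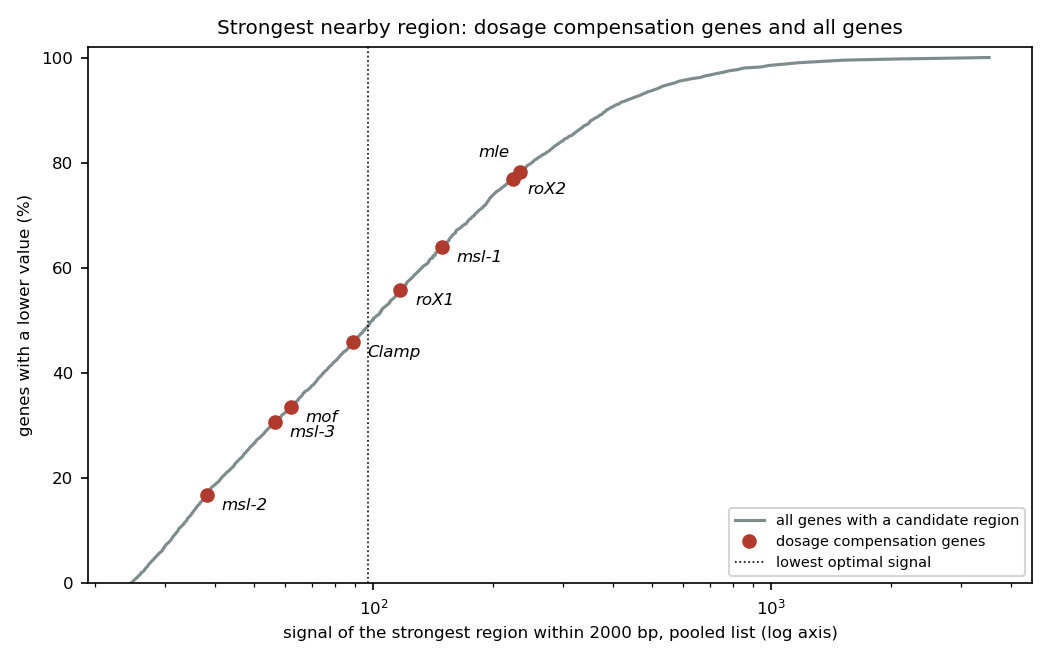
Signal of the strongest pooled region within 2000 bp (log axis) against the percentage of genes with a lower value; the grey line is the 13572 genes with a candidate, the red points are the 8 dosage compensation genes and the dotted line is the lowest optimal signal of 97.0. The 8 points run from 38.2 (msl-2) to 234 (mle), with Clamp at 89.0 just left of the dotted line.

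The roX genes both carried optimal peaks, but in different places. At roX1 (FBgn0019661, chrX:3857230-3862697, minus strand, 5468 bp) the peak lay in an exon at the 5′ end of the gene. Its summit was 196 bp inside the first of 3 annotated start sites and 76 bp upstream of another. This peak had a pooled signal of 117, rank 4547. In the replicate lists it had signals of 35.9, 32.1 and 43.4 in replicates 1, 2 and 3, at ranks 7133, 5605 and 3154. The rank in replicate 1 fell outside the 5756 strongest of that list, the number in the optimal list, and the ranks in replicates 2 and 3 lay inside. The other roX1 region, 609 bp upstream in the coding sequence of yin, a peptide transporter gene, had a signal of 33.8 and was matched in replicate 1 alone, at rank 22860.

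At roX2 (FBgn0019660, chrX:11579065-11580432, plus strand, 1368 bp) both optimal peaks lay past the 3′ end. The stronger had its summit 41 bp beyond the gene, with a pooled signal of 224 at rank 1843. Its signals in replicates 1, 2 and 3 were 74.6, 75.4 and 71.1, at ranks 2474, 1889 and 1457. Every replicate therefore placed it among its strongest regions. The outer peak, 240 bp beyond the gene, had a pooled signal of 113 at rank 4793. Within 100 bp of that summit, replicate 1 had a region of signal 45.8, replicate 2 one of 28.5, and replicate 3 none. By overlap alone the outer peak shares the counterparts of the stronger one. The transcription start site (TSS) nearest to both peaks belonged to nod, which encodes a kinesin-like protein of meiotic chromosome segregation, at 299 bp and 100 bp. The start of roX2 itself held a much weaker region, 25 bp inside the RNA, with a pooled signal of 44.8 at rank 13612. Only replicate 1 had a counterpart of it, of signal 34.5. A last region, 614 bp upstream in the coding sequence of CG11695, had a pooled signal of 27.8, with counterparts of rank 23451 in replicate 1 and 25269 in replicate 3.

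**Figure D2:**
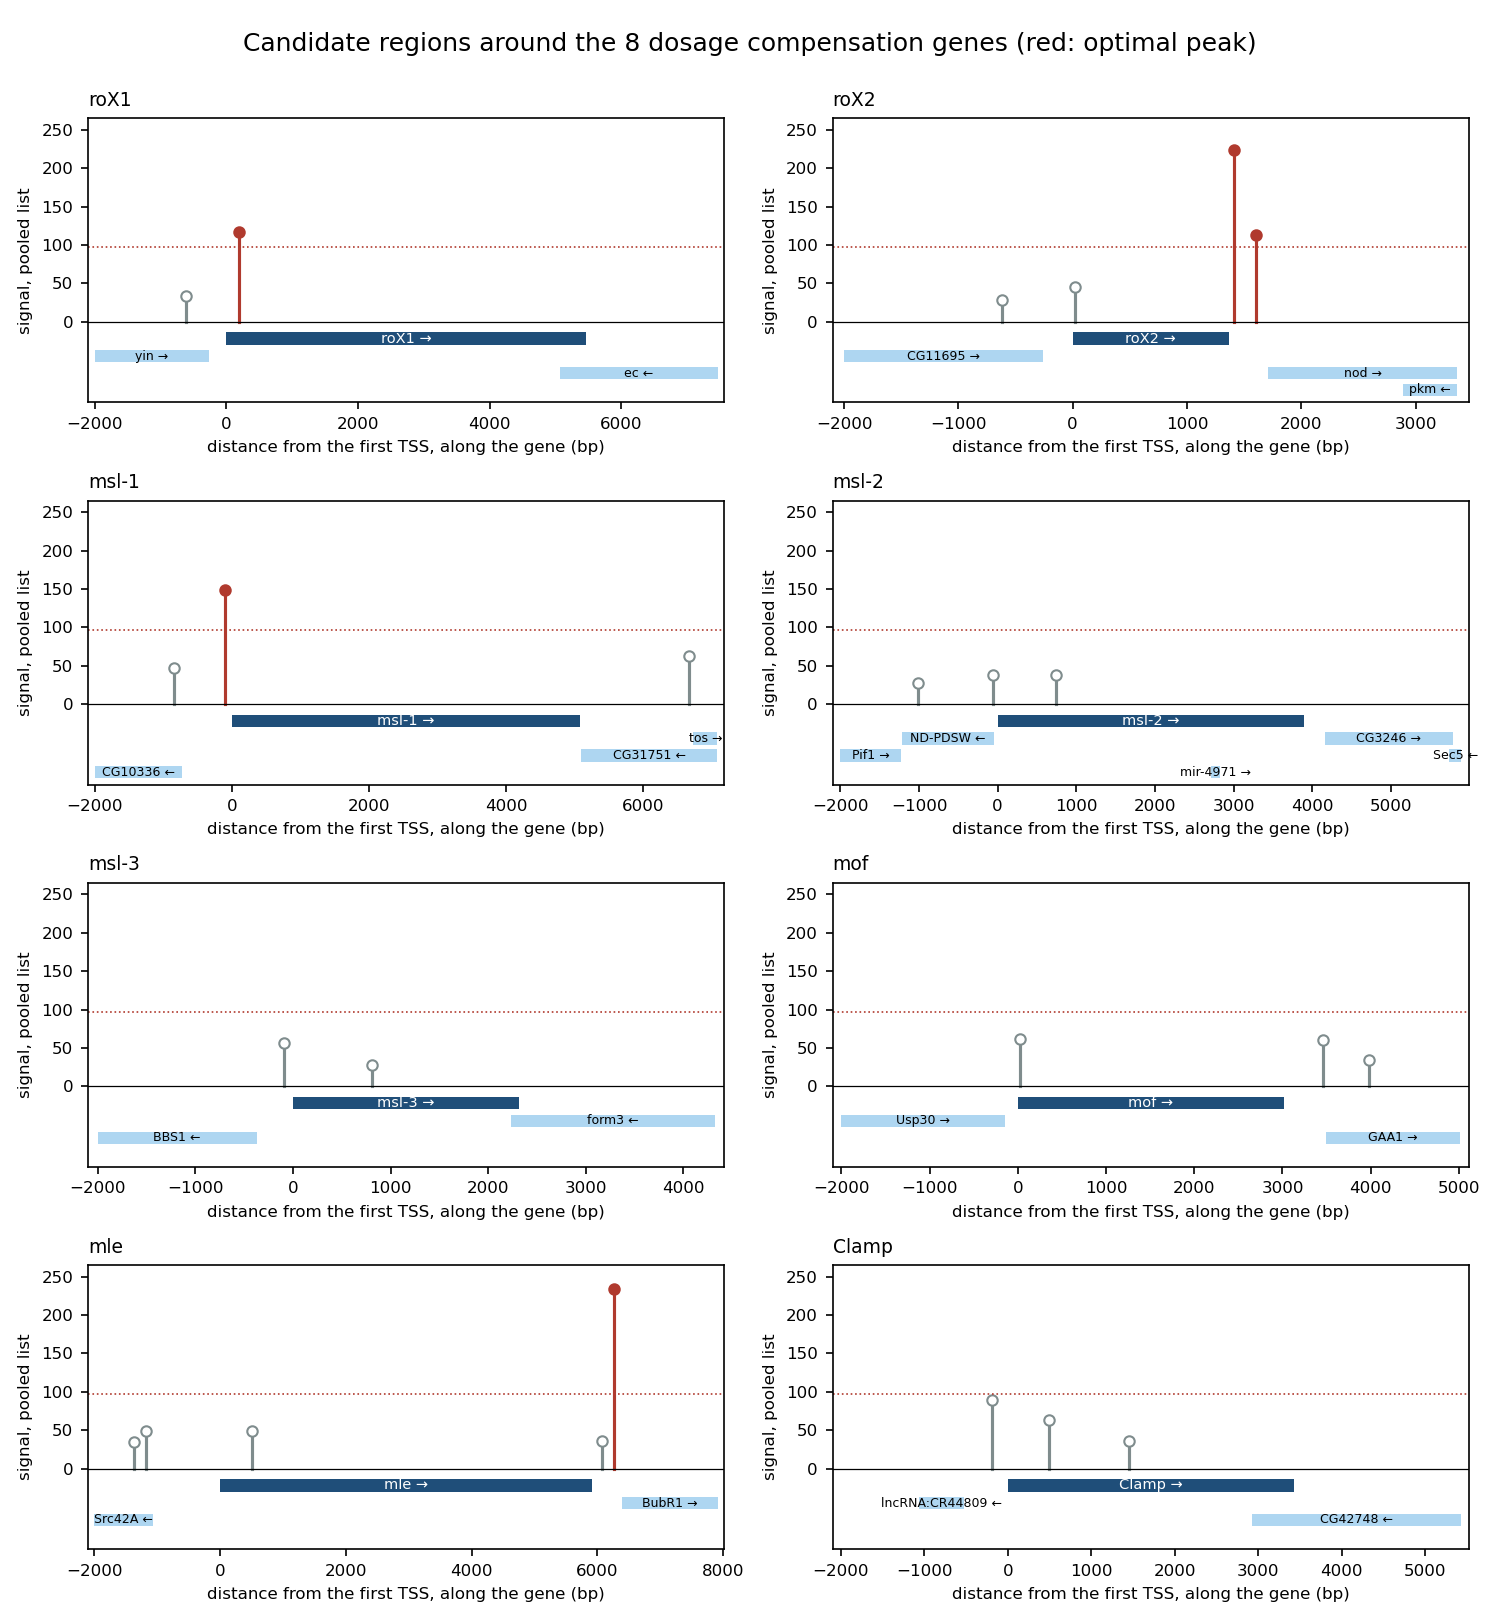
Pooled signal of every candidate region (stems, red where optimal) by distance in bp from the first TSS of each dosage compensation gene, oriented along the gene, with the gene in dark blue, neighbouring genes in light blue, arrows for direction and the lowest optimal signal of 97.0 as a dotted line. The tallest stems, at mle (234) and roX2 (224), stand beyond the 3′ end, whereas those of roX1 (117) and msl-1 (149) stand at the 5′ end.

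The core proteins differed. At msl-1 (FBgn0005617, chr2L:18683720-18688800, minus strand, 5081 bp), which encodes the scaffold of the complex, the optimal peak lay 104 bp upstream of the start site, in intergenic sequence, and this start site was the nearest. It had a pooled signal of 149 at rank 3351. In replicates 1, 2 and 3 it had signals of 49.6, 56.6 and 42.1, at ranks 4617, 2880 and 3297, all within the 5756 strongest. Of its other regions, one of pooled signal 47.1 lay 847 bp upstream, in the 5′ UTR of CG10336 and 44 bp from its start. It ranked 6858 in replicate 2 and 9802 in replicate 3 and was missing from replicate 1. Another, of pooled signal 62.3, lay 1591 bp past the 3′ end in an intron of CG31751, 54 bp from the start of tos, an exonuclease gene. It ranked 9262 in replicate 1 and 7464 in replicate 3 and was missing from replicate 2. Neither came within the 5756 strongest of any replicate.

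At msl-2 (FBgn0005616, chr2L:3462218-3466112, minus strand, 3895 bp), which encodes the RING finger protein made in males alone because Sxl blocks its translation in females, no region came near the optimal list. The 3 pooled regions had signals of 38.2, 37.7 and 27.1. The strongest lay 55 bp upstream of msl-2 but 10 bp from the divergent start of ND-PDSW, a gene for a subunit of respiratory complex I, within whose 5′ UTR it fell. It had signals of 11.0 in replicate 1 and 20.9 in replicate 3, at ranks 29095 and 8861. The next lay in the msl-2 coding sequence, 745 bp in, at ranks 14645 and 21689 in replicates 1 and 3. The weakest lay in an intron of ND-PDSW, 1008 bp upstream, at ranks 20780 and 19430. No 2 lists put the 3 regions in the same order. In replicate 2 no region of any rank lay within 2000 bp of msl-2, the only such gap among the 8 genes and 3 replicates.

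The strongest regions at msl-3 and mof lay by their own start sites and were below the lowest optimal signal. At msl-3 (FBgn0002775, chr3L:7123213-7125533, minus strand, 2321 bp) the strongest region, 95 bp upstream in intergenic sequence, had a pooled signal of 56.5 at rank 10472. It had signals of 42.8 in replicate 1 and 13.3 in replicate 3, at ranks 5723 and 20001, and no overlapping region in replicate 2. Replicate 1 thus placed it just within its 5756 strongest, and replicate 2 had nothing there. The strongest region that replicate 2 had anywhere at msl-3 was of signal 11.2, at rank 24259, in the coding sequence of form3. A region in the coding sequence, 808 bp in, had a pooled signal of 27.8 and a counterpart in replicate 3 alone, at rank 21914.

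At mof (FBgn0014340, chrX:5873840-5876853, minus strand, 3014 bp) the strongest region lay in the 5′ UTR, 28 bp after the start site, with a pooled signal of 62.1 at rank 9475. In replicates 1, 2 and 3 its counterparts had signals of 31.9, 11.9 and 20.3, at ranks 8353, 21699 and 9296. Replicate 2 was the low one. Its counterpart had its summit 189 bp away, in the mof coding sequence. Within 100 bp of the pooled summit, replicate 2 had a weaker region of signal 11.1, at rank 24608. A region of nearly the same pooled signal, 60.8, lay 449 bp past the 3′ end and 34 bp from the start of GAA1, which encodes a subunit of the GPI transamidase. Its counterparts ranked 7370 in replicate 1 and 14830 in replicate 3, with none in replicate 2. The last, of pooled signal 34.0, lay 973 bp past the end in the GAA1 coding sequence and was matched in replicate 2 alone, at rank 18885.

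At mle (FBgn0002774, chr2R:5974857-5980778, minus strand, 5922 bp) the optimal peak was the strongest of the 8 genes, with a pooled signal of 234 at rank 1706, but it lay 350 bp past the 3′ end. The nearest start site, at 122 bp, was that of BubR1, a spindle checkpoint kinase gene. In replicates 1, 2 and 3 this peak had signals of 74.1, 96.2 and 66.6, at ranks 2507, 1318 and 1647. Its deposited interval of 128 bp was unusually narrow, since 24 of the 25 regions and 93.6% of all pooled regions were 416 bp wide. Inside the gene, 1 region of signal 48.9 lay 168 bp upstream of the downstream one of 2 start sites, in coding sequence, and ranked 12292 in replicate 1 and 21630 in replicate 3. A region of signal 35.9 overlapped the peak, with its summit 151 bp past the gene end. The remaining 2, of 48.5 and 35.2, lay 107 and 308 bp from the start of Src42A, a tyrosine kinase gene, and shared 1 counterpart at ranks 16325 and 11413 in replicates 1 and 3. In replicate 2 the optimal peak was the sole region at mle.

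At Clamp (FBgn0032979, chr2L:22165720-22169143, minus strand, 3424 bp) the strongest region lay 186 bp upstream of the start site in intergenic sequence. Its pooled signal of 89.0, rank 6356, was below the lowest optimal signal of 97.0. In replicates 1, 2 and 3 it had signals of 36.6, 37.6 and 14.3, at ranks 6997, 4691 and 17452. Replicate 2 placed it within its 5756 strongest, whereas replicate 3 placed it far lower. An intronic region, 491 bp in, had a pooled signal of 62.8 and ranked 7159 in replicate 1 and 6486 in replicate 3. In replicate 3 it was thus stronger than the upstream region. One in coding sequence, 1452 bp in, had a pooled signal of 35.9 and was matched in replicate 3 alone, at rank 9130. For Clamp, msl-3 and roX1 an own start site was the nearest one to every region.

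Across the set, 2 of the 8 genes, roX1 and msl-1, had an optimal peak within 500 bp of an own start site, against 22% of all genes. An own start site was the nearest for 13 of the 25 regions and for 2 of the 5 optimal peaks. Over all genes this held for 48.2% of the 49350 pairs of a gene and a region within 2000 bp, and for 45.3% of the 11077 optimal pairs. Counting an optimal peak for a gene only where its start site is the nearest leaves 2 genes with one. On the X, 3 of 9 regions of roX1, roX2 and mof were optimal, against 2 of 16 at the 5 autosomal genes. Of the 3 on the X, 2 were the overlapping roX2 peaks. Over the whole X, 20.4% of 5237 pooled regions were optimal. On 2L, 2R and 3L, the arms of the autosomal genes, 19.1%, 18.6% and 18.2% were.

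The farthest region inside the limit of 2000 bp was the one 1591 bp beyond msl-1, of signal 62.3. The nearest outside lay 2269 bp from roX2, 87 bp from the start of CG11695, and was optimal with a signal of 221 at rank 1865. Farther out, mof had optimal peaks of signal 120 and 164 at 2811 and 3791 bp, nearest to the starts of Usp30 and CG16721. An optimal peak of signal 116 lay 4963 bp from msl-2, 47 bp from the start of Sec5.

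The order of the genes was compared by the strongest pooled region of each and by the region overlapping it in each replicate list. Ranks are a percentage of the list, where a low value is a strong region. The mle peak averaged 6.17% ± 1.94 and the stronger roX2 peak 6.60% ± 1.70 (SD, n = 3). Their replicate ranges, 4.67% to 8.36% and 4.86% to 8.25%, overlapped, and either gene came first in some replicate. The msl-1 peak averaged 12.2% ± 2.80, and its range of 10.2% to 15.4% lay below both in strength. At 18.0% ± 6.81, with a range of 10.5% to 23.8%, the roX1 peak overlapped msl-1. Further down the spread was wider than the steps between genes. The Clamp region averaged 32.7% ± 22.3 and the mof region 45.2% ± 27.4. No mean is given for msl-3 and msl-2, whose strongest pooled regions had no counterpart in replicate 2. The strongest region that each replicate itself had at Clamp lay at 23.3%, 16.6% and 21.6% in replicates 1, 2 and 3. By that measure mof had 24.6%, 66.9% and 31.0%, and msl-3 had 19.1%, 85.9% and 40.2%. At none of these genes was it the same region in all 3 replicates. For mof it lay beside GAA1 in replicate 1 and in the GAA1 coding sequence in replicate 2. For msl-3 it lay in the form3 coding sequence in replicate 2 and in an intron of BBS1 in replicate 3. Differences in this order were not tested, because a paired exact permutation test over 3 replicates cannot go below a p of 0.25.

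**Figure D3:**
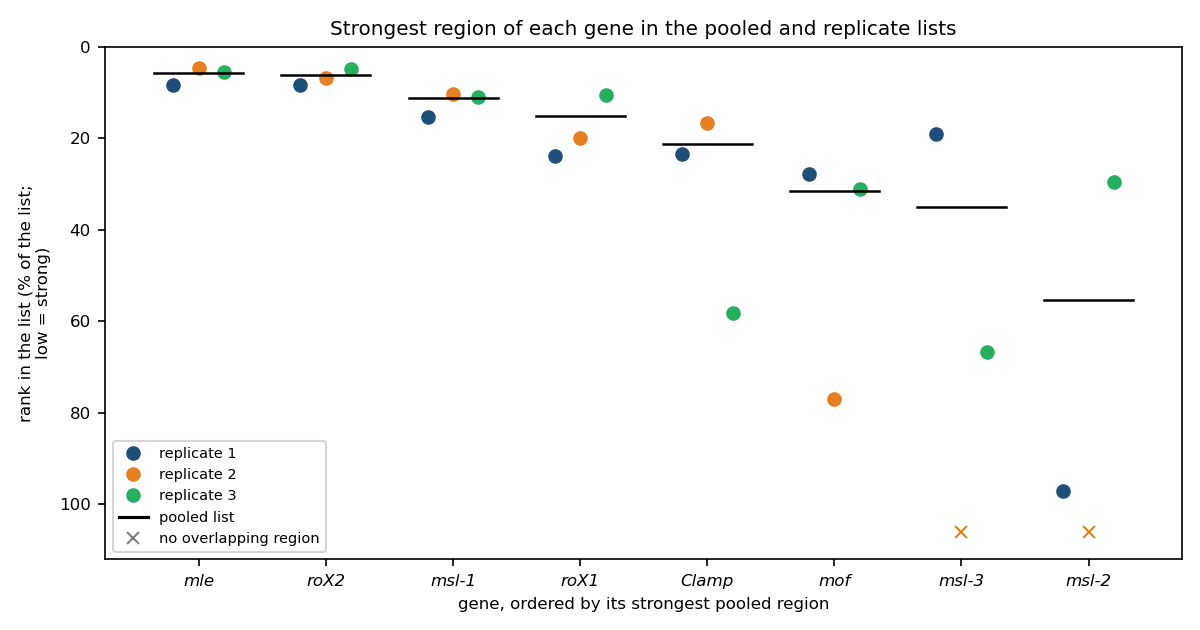
Rank of the strongest pooled region of each dosage compensation gene, and of its overlapping region in each replicate list, as a percentage of the list (y axis, strong regions at the top; coloured points are replicates, black bars the pooled list, crosses a missing counterpart). The points of mle and roX2 lie between 4.67% and 8.36%, whereas those of mof run from 27.8% to 76.9%.

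Replicate 2 held fewer regions at these genes. The 8 genes had 27, 13 and 29 regions in replicates 1, 2 and 3. Of the 25 pooled regions, 21, 10 and 22 overlapped a region in replicates 1, 2 and 3, whereas over all pooled regions 74.9%, 66.4% and 72.2% did. A counterpart in all 3 lists was found for 8 of the 25, against 43.4% of all pooled regions, in 2 lists for 12 and in 1 list for 5. Of the 8, the mle region of signal 35.9 had a counterpart in replicate 2 only through the region of the optimal peak beside it. By overlap, all 5 optimal peaks had one in all 3, as did 97.8% of the optimal list, but the outer roX2 peak only through the regions of the stronger one. With replicate summits required within 100 bp, a setting chosen after seeing the data, 4 of the 5 had one in all 3, against 89.7% of the optimal list. By overlap, 4 of the 5 peaks had counterparts among the 5756 strongest of every replicate list, against 67.9% of optimal peaks. With summits within 100 bp this held for 3 of the 5, those of msl-1, mle and the stronger roX2 peak, against 60.5%. The median distance between the pooled summit and the replicate summits was 26 bp for the 5 peaks and 17 bp over the optimal list. Regions of replicates 1, 2 and 3 at these genes that overlapped no pooled region numbered 7, 3 and 9, the strongest of them at rank 12075.

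The motif counts covered all 25 regions, within 100 bp of the summit and on both strands. The heat shock element of 3 units (GAA, 2 bases, TTC, 2 bases, GAA), with at most 1 mismatch in its 9 fixed bases, was at 0 of the 25, against 5.18% of pooled regions and 6.18% of optimal peaks. The pair GAANNTTC was at 2 regions, those at the starts of msl-3 and msl-2, and at 5.62% of all pooled regions. The pair in the other order, TTCNNGAA, was at the msl-1 peak alone, and at 4.94% of pooled regions. Of the 5 optimal peaks, 1, that of msl-1, thus held any of these elements within 100 bp. Over the optimal list, GAANNTTC was at 6.17% and TTCNNGAA at 5.96%. Within 250 bp, 2 of the 5 peaks held the element of 3 units, against 12.7% of the optimal list. The pair GAANNTTC was then at 2 of the 5, against 13.1%. Both counts came from the peaks of roX1 and msl-1. The pair and the element lay 200 and 203 bp from the roX1 summit, and 177 and 180 bp from the msl-1 summit. The 2 counts are therefore not independent.

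The GA repeat GAGAGAGA, the core of the MSL recognition element, was at 0 of the 25 regions and at 1.59% of pooled regions. Only exact matches were counted, so GA-rich sequence that departs from GAGAGAGA was missed. The nearest such repeat to the stronger roX2 peak lay 202 bp from its summit, and none lay within 2000 bp of roX1. In the gene windows of 62.5 kb as a whole there were 4, or 0.064 per kb against 0.137 over the 6 arms: 2 at roX2, 1 at msl-1 and 1 at mle. The DREF site was at 3 regions, the mle peak, the region beside GAA1 and the msl-3 start, against 2.41% of pooled regions and 4.97% of optimal peaks. The TATA box was at 5 regions and 11.2% of pooled regions, and GGTCACACT was at 4 and 1.37%. The motifs TTCNNGAA and GGTCACACT were added after the sequences had been seen, so these counts are no independent evidence. GC content within 100 bp had a median of 44.8% in the 25 regions and 39.8% in all pooled regions, and of 39.8% in the 5 peaks and 35.3% in the optimal list.

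Genes that work with the complex, or upstream of it, were described from 3 further lists. These lists were chosen with earlier results of these data known, so their shares are a description and no evidence of a pattern. Mof also acts in the NSL complex at promoters of active genes in both sexes. Of its 6 other subunit genes, 4 (66.7%) had an optimal peak within 2000 bp, against 39.2% of all genes, and the median strongest signal was 141, against 99.3. The highest were wds, encoding a WD40 protein, with 568, Rcd5 with 176 and MBD-R2 with 155. Each of these 3 peaks lay nearest to another start site, those of egh, CG11593 and CG10038. In a list of 10 chromatin and RNA factors tied to the MSL complex, 9 (90.0%) had an optimal peak, against 39.2% of all genes, with a median signal of 223, against 99.3. Here Trl, the GAGA factor, had 1512.2 at rank 30, JIL-1, the histone H3 kinase enriched on the male X, had 759 at rank 163, and Unr, which with Sxl represses msl-2 translation, had 341 at rank 898. All 3 peaks lay nearest to the gene's own start site, at 1538, 7069 and 67 bp. The genes of that list were long, with a median of 10.6 kb against 3.66 kb for the 8 genes and 1.71 kb for all genes. The NSL genes, with a median of 3.46 kb, were also longer than genes in general. A longer gene has a larger window for regions to fall in. Among all genes between 1.37 and 5.92 kb, 43.4% had an optimal peak.

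Of 15 genes that count the X or set the sex, 10 (66.7%) had an optimal peak, against 39.2% of all genes. Their median signal was 217, against 99.3. These genes were also longer, with a median of 4.09 kb against 1.71 kb for all genes. The highest were gro, a corepressor, with 761, fl(2)d with 348 and vir with 315, the last 2 being factors for Sxl splicing. The gro peak lay nearest to its own start site, at 113 bp. Those of fl(2)d and vir lay nearest to other start sites, of CG13339 at 139 bp and of Ice1 at 182 bp. Sxl, the switch gene that keeps Msl-2 out of females, was singled out after its values were seen. It had 3 optimal peaks, the strongest of 293 at rank 1192, 402 bp from an own start site, and at ranks 1048, 1237 and 1483 in replicates 1, 2 and 3. The early X counting genes sisA, sc, run and upd1 had strongest signals of 37.7, 26.4, 37.9 and 25.1, and dpn had 39.2; these 5, the genes of the list with no optimal peak, were also named after their values were seen. The regions of sc and upd1, at ranks 27360 and 29303, were near the bottom of the pooled list, whereas those of sisA, run and dpn, at ranks 16907, 16791 and 16053, were near its middle. No gene of the 3 lists lacked a candidate.

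**Figure D4:**
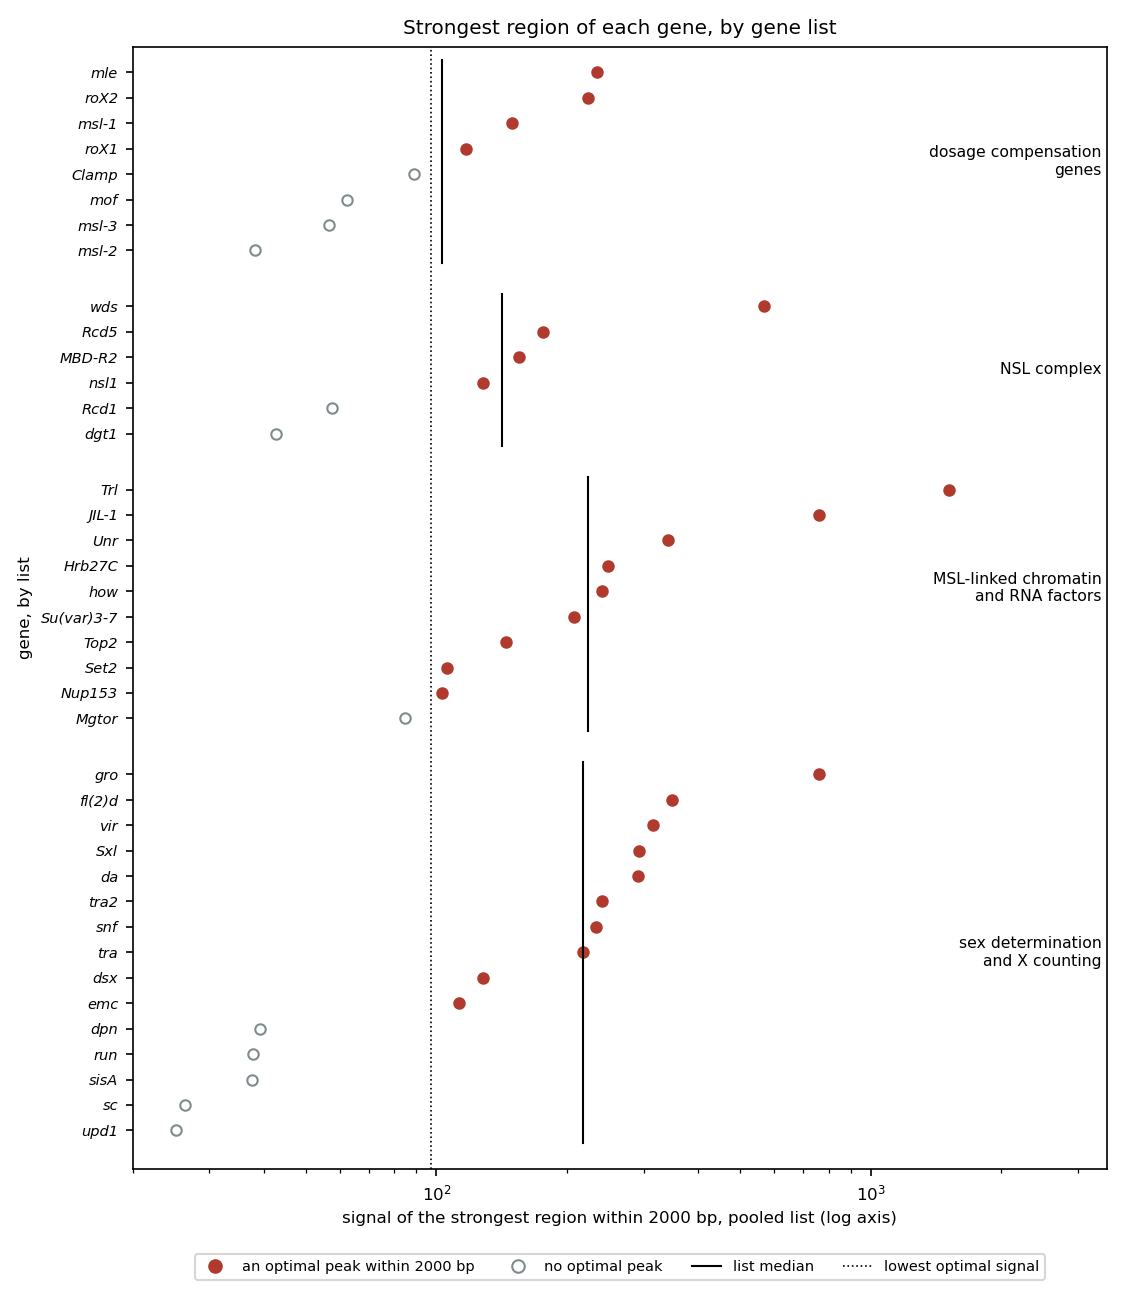
Signal of the strongest pooled region within 2000 bp (log axis) for each gene of the 4 lists, filled where the gene has an optimal peak there, with the median of each list as a vertical line and the lowest optimal signal of 97.0 as a dotted line. The medians are 103 for the dosage compensation genes, 141 for the NSL complex, 223 for the MSL-linked factors and 217 for the sex determination and X counting genes.

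The genes whose strongest region ranked most like that of mle, the strongest of the 8, were found by the distance of log10 ranks over the 3 replicate lists. BubR1 was at 0, because it shares the region. CG8312 was at 0.035, with ranks 2434, 1341 and 1531. Actn, CG4325 and usp shared 1 region at 0.0392, with ranks 2662, 1244 and 1591.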

How the data were processed

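The measurement was anti-GFP ChIP-seq in 3 biological replicates of 1 group. Per the labels and the accompanying notes, the authors deposited narrowPeak lists for dm6 and dm3: candidate regions entering IDR per replicate and pooled, and the optimal peaks. The dm6 lists were used; the dm3 lists were not used here. The deposited signal is the authors' strength score of a region in narrowPeak format, scaled separately in each list. Which aligner and peak caller were used was not given in the sources used here. Depth is not in the lists, so no counting interval is given.

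Genes and start sites came from Ensembl 115 models (annotation 6.54, genome release 6). Regions were joined to genes by summit, within 2000 bp of the gene, ranked by signal within a list, and matched between lists by an overlap of at least 1 bp, taking the strongest overlapping region. Motifs were read from the RefSeq release 6 sequence. Join, overlap and motif steps were tested on simulated data. Python 3.11.15, pandas 2.3.3, numpy 2.4.6 and matplotlib 3.10.9 were used.

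Named genes were the 8 genes, the gene with the nearest start site at each region, up to 3 genes per list with the strongest optimal peak, and the 3 closest to mle in replicate ranks, ties included. Outside this rule, Sxl and the 5 sex determination genes with no optimal peak were named after their values were seen. Of the 31 genes in the 3 lists, 1 (Mtor) was matched through a synonym, as Mgtor. The 8 genes and the lists were chosen with earlier results of these data known, and no test was run.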

Additional observations from a re-analysis of the deposited data

How the results depend on the processing

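With no margin around the genes in place of 2000 bp, the 25 regions fell to 8, the 4 genes with an optimal peak to 1 (roX1), and the genes that kept their strongest region to 2 of 8; the strongest signals were then 44.8 for roX2 and 48.9 for mle, and msl-1 had none. Margins of 500, 1000 and 5000 bp gave 17, 21 and 37 regions and 4, 4 and 6 genes with an optimal peak. Requiring a signal above the optimal median left 2 genes (roX2 and mle), and requiring the nearest start site to be the gene's own, an alternative chosen after seeing the data, left 2 (roX1 and msl-1). Leaving out each replicate in turn, with the rank required in the others, gave 3 to 4 genes with an optimal peak (3 without replicate 2 or 3, where roX1 was lost) and 3 to 4 of the 4 strongest genes. Counterparts in all 3 lists numbered 7 with 50% overlap (34.7% of all pooled regions) and 6 with summits within 100 bp (27.6%). Heat shock elements of 3 units, 0 within 100 bp, were at 4 regions within 250 bp (11.9% of all pooled regions) and, with 2 mismatches allowed, at 10 (42.4%). No fit with a replicate block was made, since the 1 group gives no contrast between groups. The lists stop at about 30000 regions, so a missing counterpart says only that a region was not listed.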
